A study of Mus musculus with 8 samples.

Results

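The mRNAs of 6 AU-rich element binding proteins were followed through RNA sequencing of mouse embryonic fibroblasts with and without Mettl3. The 6 genes were chosen by name as proteins that stabilise or destabilise mRNA: Zfp36, Zfp36l1, Zfp36l2, Elavl1, Khsrp and Hnrnpd. Auf1, a name also given in the rule, is an older name of Hnrnpd and was counted once. All 6 were among the 39017 genes of the count table, and all 6 passed the filter on low counts that left 18952 genes for testing.

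The fibroblasts came from E13.5 mouse embryos, and each of 4 groups held 2 biological replicates. Control total and knockout total libraries came from unstressed cells, as whole-cell poly(A) RNA. Control granule and knockout granule libraries came from cells stressed for 30 min with sodium arsenite at 500 µM, as poly(A) RNA of a fraction enriched for stress granules by centrifugation. Stress and fraction therefore changed together, and their parts in a granule to total ratio cannot be told apart. Mettl3, which encodes the catalytic subunit of the mRNA N6-methyladenosine (m6A) methyltransferase, was removed with a Cre recombinase activated by 500 nM 4-hydroxytamoxifen over 48 h, and its loss was checked after 7 days. The labels name neither the promoter that drives Cre nor whether control cells received 4-hydroxytamoxifen, and they do not describe the embryos or cultures behind the replicates, so p-values measure the spread between these samples.

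AU-rich elements are stretches of A and U in the 3′ untranslated region (3′ UTR) of many short-lived mRNAs, such as those of cytokines, growth regulators and immediate early transcription factors. Proteins of the ZFP36 family bind them through CCCH zinc fingers and bring in the deadenylation machinery, while ELAVL1 (HuR) binds them and mostly protects the mRNA. KHSRP and HNRNPD (AUF1) also bind them and are best known for speeding decay. Several of these proteins are encoded by mRNAs with AU-rich elements of their own, and Zfp36 is itself an immediate early gene.

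The 3′ UTR matches to the nonamer TTATTTATT, a core motif of ZFP36 binding written in DNA letters, are shown because they separate the members: 4 carry it and 2 do not. Zfp36 (ENSMUSG00000044786, GRCm38 chromosome 7, 28376784 to 28380253, minus strand) had 1 match in a 3′ UTR of 774 bases. Zfp36l1 (ENSMUSG00000021127, chromosome 12, 80107754 to 80113013, minus strand) had 1 in 1835 bases, and Zfp36l2 (ENSMUSG00000045817, chromosome 17, 84183931 to 84187947, minus strand) had 1 in 1822 bases. Elavl1 (ENSMUSG00000040028, chromosome 8, 4285382 to 4325413, minus strand) had 8 overlapping or nearby matches in 4218 bases. Each stretch below is 29 bases of the annotated 3′ UTR on the transcribed strand, with every complete nonamer in capitals (for Elavl1, 4 overlapping matches). The stretches lie at chr7:28376951-28376979, chr12:80108167-80108195, chr17:84184914-84184942 and chr8:4285784-4285812, in the order printed.
Zfp36: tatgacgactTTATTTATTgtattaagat
Zfp36l1: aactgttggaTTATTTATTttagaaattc
Zfp36l2: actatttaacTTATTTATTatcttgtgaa
Elavl1: tgaaaaTTATTTATTTATTTATTTATTtt

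Khsrp (ENSMUSG00000007670, chromosome 17, 57021051 to 57031522, minus strand) and Hnrnpd (ENSMUSG00000000568, chromosome 5, 99955935 to 99978938, minus strand) had no match in 3′ UTRs of 1642 and 5429 bases. The nonamer was sought on the transcribed strand of the longest annotated 3′ UTR of each gene, with overlapping matches counted, and 7.73% of 20442 genes carried it. Among 3′ UTRs within the length range of the 4 shorter members, 774 to 1835 bases, the share was 7.66% of 5744 genes, and within that of Elavl1 and Hnrnpd, 4218 to 5429 bases, it was 19.8% of 622. The shorter pentamer ATTTA, which lies inside the nonamer, was present in every member, from 1 copy in Khsrp to 17 in Elavl1, and in 65.6% of all genes. GGACT, a favoured sequence of m6A, was also present in every member, between 1 copy in Zfp36 and 5 in Zfp36l1, and in 58.0% of all genes. The shares of ATTTA and GGACT cover 3′ UTRs of every length and were not matched to the lengths of the members. No m6A map was used here, so a match says nothing about methylation. One of the 2 copies in Zfp36l2 is shown because Zfp36l2 is the member whose ratio differed between genotypes. It starts 100 bases after the stop codon, at chr17:84185637-84185665, with the pentamer in capitals.
Zfp36l2 GGACT: ctccgagcacttGGACTcgaactctgccg

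The libraries held 67257220 to 123508539 counts. Mettl3 stood at 24.9 and 25.4 CPM (counts scaled to library size, here with the trimmed mean of M-values scaling of edgeR, TMM) in control total libraries, and at 6.005 and 7.35 in knockout total libraries. In the granule fraction it stood at 15.4 and 15.7 CPM in control and at 5.56 and 6.38 in knockout, so that no knockout library reached a control library. The 2 knockout total libraries stood far from each other: they differed by more than 1 on the log2 scale for 40.3% of tested genes, against 6.49% to 11.0% for the replicates of the other groups. Mitochondrially encoded transcripts took 7.602% of the counts in knockout total replicate 1 and 0.8072% in replicate 2, 6.156% and 8.808% in the knockout granule libraries, and 0.59% to 0.8813% in the 4 control libraries. Fibroblast markers summed to 6345 to 9310 CPM over the 8 libraries and leukocyte markers to 64.5 to 113.6 CPM, with no listed marker at 0 in every library. The epithelial list (Epcam, Cdh1, Krt8, Krt18, Krt5; 2 of 5 over 5 CPM) summed to 252.8 to 368 CPM in control total, 659 to 715 in control granule, 66.8 to 106.6 in knockout total and 557 to 689 in knockout granule libraries. The neural list (Tubb3, Map2, Sox2, Nes, Snap25, Stmn2; 3 of 6 over 5 CPM) summed to 330.4 to 331.5 CPM in control total, 583.3 to 654.7 in control granule, 182.3 to 285.2 in knockout total and 381.4 to 391.5 in knockout granule libraries. The part of the mitochondrial, epithelial and neural transcripts in the results was not tested. In bulk RNA, fewer cells of a type and less RNA per cell cannot be told apart.

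Levels are given first for the ZFP36 family, the decay-promoting members. Zfp36 (tristetraprolin) stood at 33.1 and 28.6 CPM in control total, 138 and 131 in control granule, 33.9 and 35.1 in knockout total, and 136 and 92.6 in knockout granule libraries. Its granule libraries all lay above its total libraries, and in the granule fraction the genotypes overlapped. Zfp36l2 stood at 133 and 165 CPM in control total, 560 and 483 in control granule, 430 and 337 in knockout total, and 228 and 201 in knockout granule libraries. No pair of its 4 groups overlapped, and the order of the fractions was opposite in the genotypes: granule above total in control, granule below total in knockout. Zfp36l1 stood at 31.4 and 32.3 CPM in control total, 56.3 and 53.9 in control granule, 165 and 48.4 in knockout total, and 52.8 and 47.3 in knockout granule libraries. One library, knockout total replicate 1, was 3.41 times its replicate, and the other 7 libraries spanned 31.4 to 56.3 CPM.

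Elavl1, the stabilising member, spanned 111 to 225 CPM, the narrowest range of the 6 by the ratio of highest to lowest. It stood at 127 and 133 CPM in control total, 225 and 208 in control granule, 111 and 122 in knockout total, and 153 and 147 in knockout granule libraries. The granule libraries lay above the total libraries in both genotypes, and the knockout granule libraries lay below the control granule libraries. Khsrp stood at 399 and 365 CPM in control total, 425 and 367 in control granule, 172 and 341 in knockout total, and 194 and 180 in knockout granule libraries. All 4 control libraries lay above all 4 knockout libraries, and the control fractions overlapped. Hnrnpd stood at 158 and 181 CPM in control total, 404 and 365 in control granule, 822 and 165 in knockout total, and 295 and 283 in knockout granule libraries. Its knockout total replicates differed 4.97-fold, with replicate 2 inside the control total range and replicate 1 above every other library.

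**Figure D1:**
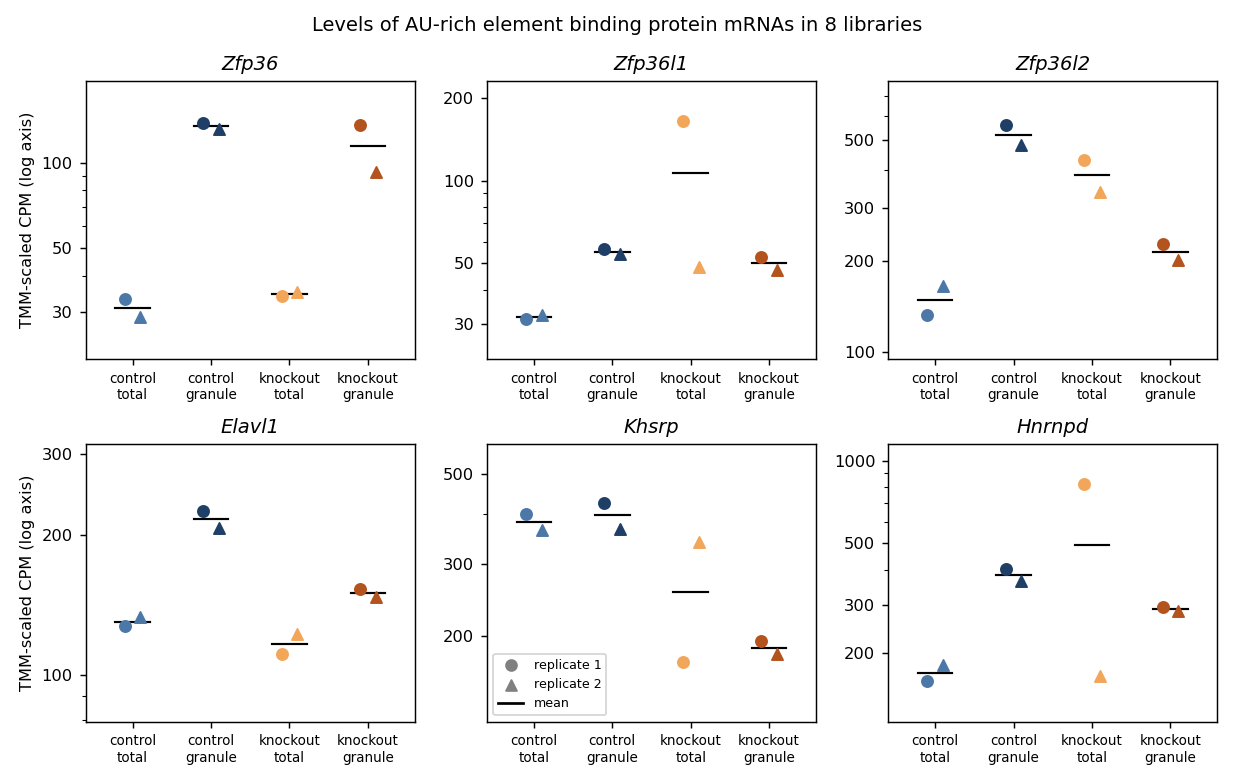
TMM-scaled CPM (log axis) of the 6 mRNAs in each library by group, with circles for replicate 1, triangles for replicate 2 and bars for group means (n = 2). Zfp36 is high in both granule groups, Zfp36l2 is high in control granule and knockout total, and the knockout total replicates lie far apart for Zfp36l1, Khsrp and Hnrnpd.

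Per kilobase of annotated exon (RPKM, from TMM-scaled CPM), the order in control total RNA was Khsrp at 88.4, Zfp36l2 at 42.2, Hnrnpd at 23.0, Elavl1 at 12.6, Zfp36l1 at 10.7 and Zfp36 at 8.89 RPKM (means, n = 2). In the control granule fraction Zfp36l2 came first at 147.8 RPKM, before Khsrp at 91.8, Hnrnpd at 52.2, Zfp36 at 38.8, Elavl1 at 20.9 and Zfp36l1 at 18.4. No neighbours in either control order overlapped between libraries. In knockout total RNA Zfp36l2 at 108.6, Hnrnpd at 67.2, Khsrp at 59.4 and Zfp36l1 at 35.7 RPKM each overlapped the next, above Elavl1 at 11.3 and Zfp36 at 9.95. In the knockout granule fraction the order was Zfp36l2 at 60.8, Khsrp at 43.3, Hnrnpd at 39.3, Zfp36 at 32.9, Zfp36l1 at 16.7 and Elavl1 at 14.5 RPKM, and Hnrnpd and Zfp36 overlapped. The exon length of Elavl1, 10363 bases, is longer than its 5743-base reference transcript, so its RPKM is the one most sensitive to the annotation. Zfp36 has 3470 exon bases against 2790 in its reference transcript. Per kilobase of reference transcript, Zfp36 stood at 11.1 in control total RNA, above Zfp36l1 at 10.7. Elavl1 stood there at 22.7 and Hnrnpd at 24.9. In the knockout granule fraction Elavl1 stood at 26.1, above Zfp36l1 at 16.7. Exons of an antisense gene cover 55.92% of the Zfp36l1 exons, at 4 to 18 counts per library for that gene, and the antisense share was at most 5.235% for the other members. Whether strand was used in counting is not given in the sources used here, so antisense reads cannot be told apart.

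The family's make-up differed between groups. The 3 Zfp36 family mRNAs summed to 57.7 and 65.8 RPKM in control total, 217 and 193 in control granule, 187 and 122 in knockout total, and 121 and 99.5 in knockout granule libraries. Zfp36l2 made up 53.2% to 78.4% of that sum in every library. Zfp36 made up 5.23% and 8.32% in knockout total and 32.2% and 26.8% in knockout granule libraries, outside the 12.5% to 19.6% of the 4 control libraries on either side. The ratio of Zfp36l2 to Zfp36 was accordingly 12.5 and 9.43 in knockout total, 1.65 and 2.14 in knockout granule, and 3.62 to 5.67 in the control libraries. These shares rest on annotated exon length, which for Zfp36 is longer than its reference transcript, and they were not tested.

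The first comparison asked which mRNAs were enriched among granules of control cells, by the quasi-likelihood test of edgeR on all 8 libraries with Benjamini-Hochberg adjustment over all genes tested. Zfp36 and Zfp36l2 rose, 2 of the 6 members, while 5.89% of all genes were called higher, 4.17% lower and 10.1% in either direction at an adjusted p under 0.05. The higher calls were thus 58.6% of all calls, a share that was 37.7% with upper-quartile factors in place of TMM. Zfp36 was 4.36-fold higher (log2 2.12, SE 0.281, edgeR adjusted p = 0.00864) and Zfp36l2 was 3.50-fold higher (log2 1.81, SE 0.268, edgeR adjusted p = 0.0111), each in both granule libraries against both total libraries. Zfp36l1 at 0.79 (SE 0.491), Elavl1 at 0.73 (SE 0.229) and Hnrnpd at 1.18 (SE 0.606) on the log2 scale did not pass, with edgeR adjusted p of 0.317, 0.0763 and 0.233. In that order they were called in 4, 5 and 5 of 19 alternatives. All 3 were called with voom quality weights, where 7448 of 18952 genes were called. The same held with the groups compared alone, where 7354 of 17364 genes were called. Khsrp was at 0.05 (SE 0.336, edgeR adjusted p = 0.933). The median of the 6 was 0.99 against -0.06 over all genes. Both calls were lost when any one of the 4 control libraries was left out (edgeR adjusted p 0.0803 to 0.122, with log2 values of 1.67 to 2.24). The knockout total libraries are no part of the contrast but enter the shared spread. The median of the 6 was 0.99 without knockout total replicate 1 and 1.03 without replicate 2.

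In knockout cells the same comparison gave a different set. Zfp36 rose 3.31-fold in the granule fraction (log2 1.73, SE 0.277, edgeR adjusted p = 0.00745), with both granule libraries above both total libraries. It was the 1 member called of 6, where 9.17% of all genes were called higher, 8.47% lower and 17.6% in either direction. Zfp36l2 lay at -0.84 (SE 0.262, edgeR adjusted p = 0.0609), lower in both granule libraries and just outside the threshold. It was called lower in 6 of 19 alternatives. Among them were DESeq2 (adjusted p = 0.016), which called 5091 of 18952 genes, and removal of each library's GC trend (log2 -1.19, edgeR adjusted p = 0.0262). Elavl1 lay at 0.36 (SE 0.228, edgeR adjusted p = 0.302) and Khsrp at -0.45 (SE 0.337, edgeR adjusted p = 0.382). Khsrp lay at -0.87 without knockout total replicate 1 and at -0.0059 without replicate 2. It was called lower with the GC trend of each library removed (log2 -0.83, edgeR adjusted p = 0.0122), where 6020 of 18952 genes were called. For Hnrnpd (-0.77, SE 0.601, edgeR adjusted p = 0.406) and Zfp36l1 (-1.09, SE 0.494, edgeR adjusted p = 0.161) the sign itself turned on 1 library: without knockout total replicate 1 they lay at 0.80 and 0.04, and without knockout total replicate 2 at -1.64 and -1.85. The median of the 6 was -0.61 against 0.04 over all genes, and 0.16 without knockout total replicate 1 and -0.57 without replicate 2. The Zfp36 call was lost without knockout granule replicate 1, at a log2 value of 1.35. Zfp36l2 lay at -0.66 without knockout total replicate 1 and at -1.13 without replicate 2.

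An interaction term compared the granule to total ratios of the genotypes. The Zfp36l2 ratio was lower in knockout cells, at -0.84 against 1.81 in control cells, a difference of -2.65 on the log2 scale (SE 0.374, edgeR adjusted p = 0.0405), and each of the 16 combinations of libraries gave a value between -3.17 and -2.11. It was the 1 member called of 6, where 0.517% of all genes were called, 0.401% with a higher and 0.116% with a lower ratio in knockout. The other members' differences were -0.40 for Zfp36 (SE 0.382), -1.88 for Zfp36l1 (SE 0.697), -0.37 for Elavl1 (SE 0.322), -0.51 for Khsrp (SE 0.475) and -1.96 for Hnrnpd (SE 0.853), and none passed (edgeR adjusted p 0.152 to 0.52). All 6 values were below 0, except that Elavl1 lay at 0.03 with the GC trend of each library removed, and their median was -1.20 against 0.09 over all genes. Those of Zfp36l1 and Hnrnpd lay at -0.76 and -0.39 without knockout total replicate 1, and at -2.68 and -2.86 without replicate 2. Khsrp lay at -0.93 without knockout total replicate 1 and at -0.10 without replicate 2. With the GC trend removed, 1690 of 18952 genes were called, among them Khsrp at -1.25 (edgeR adjusted p = 0.0327) and Zfp36l2 at -3.30 (edgeR adjusted p = 0.015). The Zfp36l2 call held without knockout total replicate 1 (log2 -2.47, edgeR adjusted p = 0.000177) and without replicate 2 (log2 -2.98, edgeR adjusted p = 9.44e-06), but not without any one of the 4 control or the 2 knockout granule libraries (edgeR adjusted p 0.158 to 0.317, log2 -2.95 to -2.51).

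**Figure D2:**
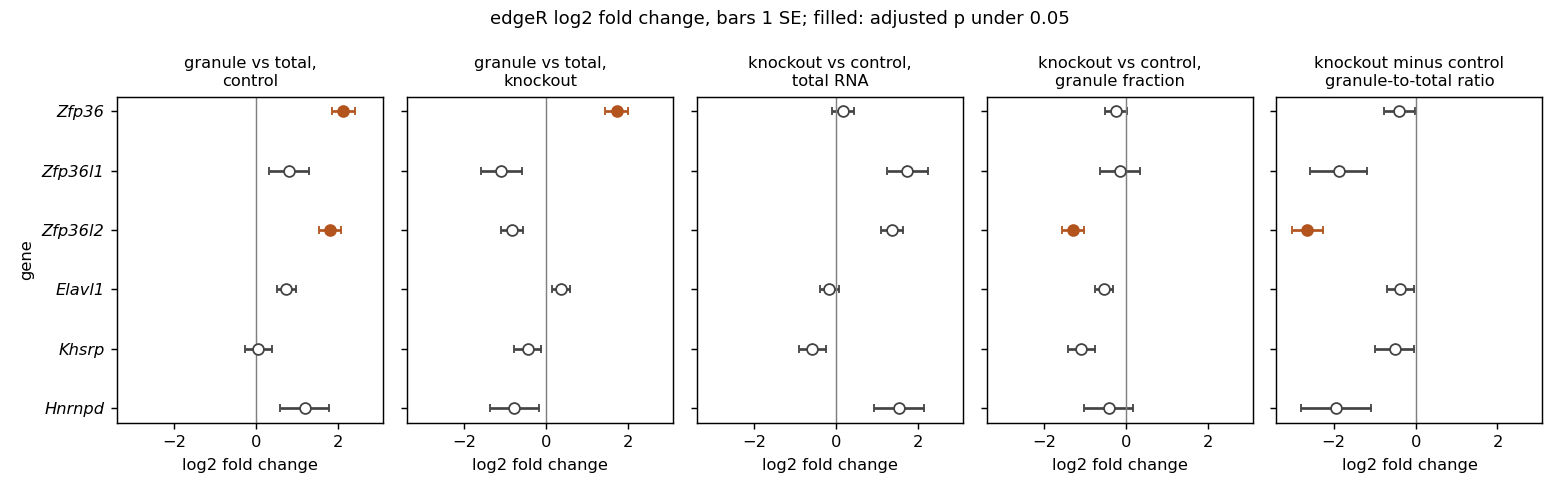
Log2 fold change of each member in the 5 contrasts, with bars of 1 SE and filled points at an edgeR adjusted p under 0.05. Zfp36 is filled for granule against total in both genotypes, and Zfp36l2 in control granule against total, in knockout against control granule, and in the difference of ratios.

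Knockout was then compared with control within each fraction. In total RNA no member passed, where 0.412% of all genes were called (0.274% higher and 0.137% lower). By edgeR 3 of the 6 had an unadjusted p under 0.05, as did 4705 of all 18952 genes. DESeq2 called 2 of the 6 (Zfp36l1 and Zfp36l2) and 2437 of all genes. Zfp36l2 was nearest, at 1.36 (SE 0.265, edgeR adjusted p = 0.0758), and higher in both knockout libraries. Zfp36l1 lay at 1.74 (SE 0.502, edgeR adjusted p = 0.143) and Hnrnpd at 1.54 (SE 0.612, edgeR adjusted p = 0.18). Zfp36 lay at 0.16 (SE 0.27), Elavl1 at -0.16 (SE 0.228) and Khsrp at -0.58 (SE 0.337), with edgeR adjusted p of 0.717, 0.67 and 0.31. The 2 knockout total libraries gave unlike pictures. Against the control total mean, replicate 1 differed by 2.37 for Zfp36l1, 2.28 for Hnrnpd and -1.15 for Khsrp, while replicate 2 differed by 0.60, -0.03 and -0.16. In the fit without replicate 2, Zfp36l1 lay at 2.48 and Hnrnpd at 2.39, and in the fit without replicate 1 they lay at 0.60 and -0.03. Zfp36l2 differed by 1.54 in replicate 1 and 1.18 in replicate 2. In replicate 1 the log2 difference over all genes ran downwards with the GC content of the transcript. The trend at the members' GC content was 1.12 at 41.68% (Hnrnpd), 0.15 at 48.96% (Zfp36l1), -0.72 at 54.82% (Zfp36l2) and -1.01 at 57.34% (Khsrp). Khsrp lay near that trend and Hnrnpd, Zfp36l1 and Zfp36l2 above it. Zfp36 at 0.14 lay above its trend value of -0.61, and Elavl1 at -0.23 lay below its value of 0.62. With the GC trend of each library removed, the Zfp36l2 difference was 1.88 (edgeR adjusted p = 0.0263).

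**Figure D3:**
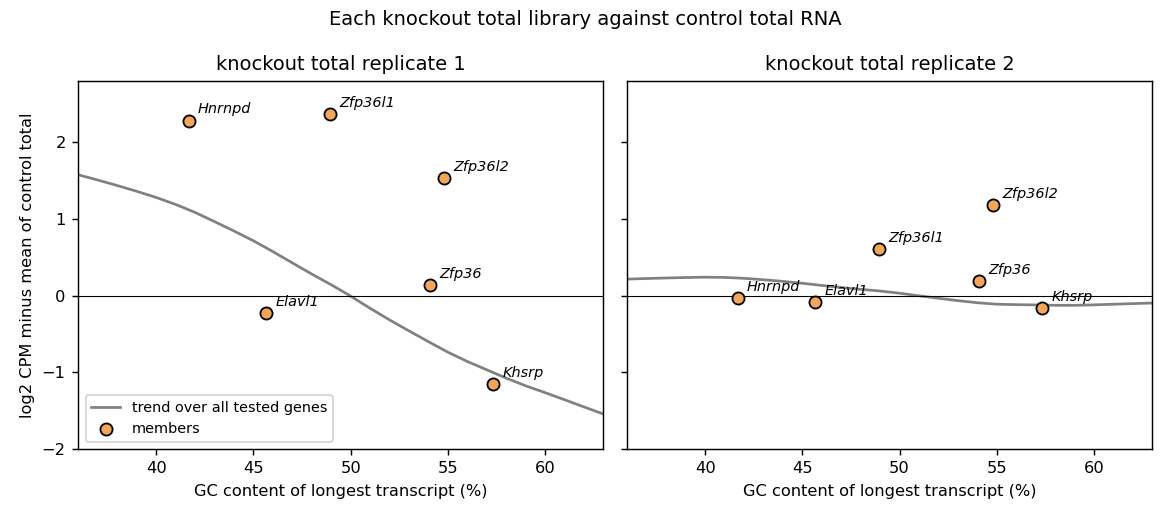
Log2 CPM of each knockout total library minus the mean of the control total libraries, against GC content of the longest transcript, for the 6 members (points) and as a smoothed trend over all tested genes (line). The line falls steeply with GC content in replicate 1 and is nearly flat in replicate 2, and Zfp36l2 lies above 1 in both.

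In the granule fraction Zfp36l2 fell to 0.41 of the control level in knockout cells (log2 -1.28, SE 0.264, edgeR adjusted p = 0.0262), with both knockout libraries below both control libraries. It was the 1 member called of 6, where 3.66% of all genes were called lower, 5.79% higher and 9.45% in either direction. The higher calls were 61.3% of all calls, and 73.1% with upper-quartile factors. Khsrp lay at -1.08 (SE 0.34, edgeR adjusted p = 0.0854), Elavl1 at -0.53 (SE 0.228, edgeR adjusted p = 0.174) and Hnrnpd at -0.41 (SE 0.599, edgeR adjusted p = 0.694). These 3 were called in 8, 4 and 4 of 19 alternatives. Khsrp was called by DESeq2 (adjusted p = 0.0325), where 3381 of 18952 genes were called. It was also called with the GC trend removed (log2 -1.29, edgeR adjusted p = 0.00353), where 4364 were called. Zfp36 at -0.24 (SE 0.27) and Zfp36l1 at -0.14 (SE 0.488) had edgeR adjusted p of 0.604 and 0.88. The 6 values had a median of -0.47 against 0.08 over all genes. The Zfp36l2 call was lost with any one of the 4 control or the 2 knockout granule libraries left out (edgeR adjusted p 0.0529 to 0.248, log2 -1.45 to -1.205). The knockout total libraries are outside this contrast, and the median of the 6 was -0.48 without replicate 1 of them and -0.54 without replicate 2.

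Other proteins that bind AU-rich or stem-loop decay elements were counted from a list of 23, of which 22 were tested (Zfp36l3 was not). In control cells 5 rose and 0 fell in the granule fraction, 22.7% called against 10.1% of all genes, with a median of 0.93 against -0.06. They included Rc3h2 (Roquin-2, a binder of stem-loop decay elements) at 2.37, Fxr1 (a relative of the fragile X protein) at 2.24 and the RNA-packaging protein Hnrnpa2b1 at 1.45 (edgeR adjusted p 0.0237, 0.02 and 0.0199). The list's median GC content was 43.88%, and with the GC trend of each library removed these values were 1.397, 1.28 and 0.94. In knockout cells 1 rose and 2 fell, 13.6% against 17.6% of all genes, with a median of -0.10 against 0.04. Ybx1 (a cold-shock domain protein that coats mRNA) fell by 1.97 and Fubp3 (a KH-domain relative of Khsrp) fell by 1.02 (edgeR adjusted p 0.0271 and 0.0403). Ybx1 lay at -0.98 without knockout total replicate 1 and -2.68 without replicate 2, and was called in 12 of 19 alternatives. Fubp3 was called in 9 of 19. Knockout against control gave 0 calls in total RNA by edgeR. There 7 had an unadjusted p under 0.05 and DESeq2 called 5, against 4705 and 2437 of all 18952 genes. In knockout against control granule RNA 1 rose and 3 fell, 18.2% against 9.45% of all genes. Fubp3 lay at -1.93, Hnrnpa1 at -1.32 and Hnrnpab at -1.55 (edgeR adjusted p 0.0108, 0.0239 and 0.0475). These 3 were called in 15, 13 and 9 of 19 alternatives. The interaction gave 0 calls by edgeR. There 14 had an unadjusted p under 0.05 and DESeq2 called 3, against 4898 and 2724 of all 18952 genes. The median was -1.001, and it was -0.75 without knockout total replicate 1 and -1.13 without replicate 2. With 1 library left out, the median ran from 0.77 to 1.21 in the control comparison of fractions and -0.20 to 0.06 in that of knockout. It ran from 0.22 to 0.63 in total RNA, -0.62 to -0.54 in granule RNA and -1.34 to -0.75 in the interaction. The number of calls changed with the library left out.

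The binding proteins act through deadenylases and the exosome, for which 31 of 32 listed genes were tested. In control cells 3 rose in the granule fraction and 0 fell: Cnot6, a catalytic subunit of the CCR4-NOT deadenylase, at 2.09, and the anti-proliferative adaptors Tob2 at 1.30 and Tob1 at 1.29 (edgeR adjusted p 0.0213, 0.0264 and 0.0352). The share called was 9.68% against 10.1% of all genes, and Cnot6 lay at 1.19 with the GC trend removed. In knockout cells 0 rose and 2 fell: Exosc1, an exosome cap subunit, at -1.89 and Cnot9, a scaffold subunit of CCR4-NOT, at -1.32 (edgeR adjusted p 0.0175 and 0.0218), 6.45% of the list against 17.6% of all genes. Without knockout total replicate 1 and without replicate 2, Exosc1 lay at -1.22 and -2.48 and Cnot9 at -0.94 and -1.745, and they were called in 16 and 13 of 19 alternatives. Tob1 also fell in knockout against control granule RNA, at -1.16 on the log2 scale (edgeR adjusted p = 0.047), the 1 call there (3.23% against 9.45%). That call was made in 9 of 19 alternatives. Total RNA gave 0 calls by edgeR (14 at an unadjusted p under 0.05, 7 by DESeq2), and so did the interaction (14 and 10). Over all 18952 genes, 4705 passed that unadjusted threshold in total RNA and 4898 in the interaction, and DESeq2 called 2437 and 2724. Medians were 0.25, -0.63, 0.34, -0.31 and -0.68 for granule to total in control, granule to total in knockout, knockout to control in total RNA, the same in granule RNA, and the interaction. With 1 library left out these medians ran, in the same order, from 0.15 to 0.41, -1.03 to -0.21, 0.24 to 0.71, -0.44 to -0.33 and -1.145 to -0.50. The number of calls changed with the library left out.

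Kinases of the p38-MK2 pathway phosphorylate ZFP36 and let 14-3-3 proteins bind it, and 18 of these regulators were tested. Map2k3, a kinase that activates p38, rose in the control granule fraction by 1.07 (edgeR adjusted p = 0.0438). Ppp2cb, a catalytic subunit of protein phosphatase 2A, fell in knockout against control granule RNA, at -1.02 (edgeR adjusted p = 0.0387). These were the 2 calls of edgeR on the list over the 5 contrasts, and each was kept in 9 alternatives and lost in 10. At an unadjusted p under 0.05, edgeR gave 5 and 5 in those contrasts and 4 in knockout granule against total. It gave 4 in knockout against control total and 7 in the interaction. Over all 18952 genes it gave 5683, 5291, 6510, 4705 and 4898 in the same order. DESeq2 called 2, 4, 1, 1 and 3 of the list, and 4032, 3381, 5091, 2437 and 2724 of all genes. The shares called, 5.56% in each of the first pair, stood against 10.1% and 9.45% of all genes. With 1 library left out, the list's median ran from 0.23 to 0.37 in control granule against total. In knockout against control granule RNA it ran from -0.62 to -0.49. The number of calls changed with the library left out.

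Targets were represented by 45 mRNAs known for AU-rich elements, all tested. In control cells 10 rose and 2 fell in the granule fraction, 26.7% called against 10.1% of all genes, with a median of 0.51 against -0.06. The immediate early factor Fos rose by 2.88, the MAP kinase phosphatase Dusp1 rose by 2.42 and the chemokine Cxcl1 fell by 1.995 on the log2 scale (edgeR adjusted p 0.00485, 0.00683 and 0.00885). In knockout cells 8 rose and 6 fell, 31.1% against 17.6% of all genes, with a median of -0.27 against 0.04. Fos rose by 3.61, the NF-kappaB inhibitor Nfkbia rose by 2.15, and the macrophage growth factor Csf1 fell by 2.15 (edgeR adjusted p 0.00213, 0.00334 and 0.00371). Of the 45, 5 were called in both genotypes, 7 in control alone, 9 in knockout alone and 24 in neither, and no difference between genotypes follows from these counts. Calls of Fos, Dusp1 and Cxcl1 in control cells were lost when any one control library was left out. With 1 library left out, the median of the 45 ran from 0.52 to 0.65 in control cells. In knockout cells it ran from -0.425 to -0.066. The number of calls changed with the library left out.

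**Figure D4:**
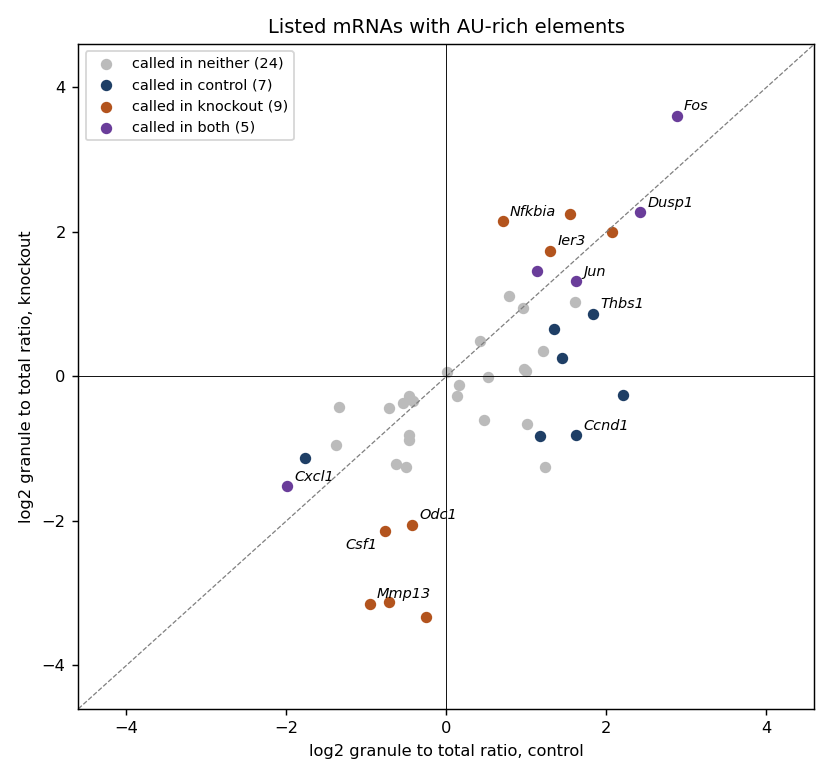
Log2 granule to total ratio of 45 mRNAs known for AU-rich elements in control (horizontal) and knockout cells (vertical), coloured by the genotypes in which they passed edgeR at an adjusted p under 0.05, with the line of equal ratios dashed. Fos and Dusp1 lie at the upper right in both genotypes, and Ccnd1 lies at 1.62 in control and -0.82 in knockout.

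In the interaction 1 of the 45 was called, 2.22% against 0.517% of all genes: Ccnd1 (cyclin D1, which drives entry into the cell cycle), with a difference of -2.44 (SE 0.362, edgeR adjusted p = 0.0437). Its level was 88.5 and 67.2 CPM in control total, 240.0 and 239 in control granule, 81.1 and 87.7 in knockout total, and 44.1 and 51.7 in knockout granule libraries. Like Zfp36l2 it was higher in the granule libraries of control cells and lower in those of knockout cells, while its total levels overlapped between genotypes and those of Zfp36l2 did not. Within the granule fraction 5 of the 45 rose and 4 fell in knockout against control, 20% against 9.45% of all genes. Ccnd1 fell by 2.32 on the log2 scale, the mitotic cyclin Ccnb1 fell by 1.90, and Nfkbia rose by 1.47 (edgeR adjusted p 0.00541, 0.0105 and 0.015). In total RNA 1 rose, the collagenase Mmp13 by 4.98 (edgeR adjusted p = 0.027), 2.22% against 0.412% of all genes. Mmp13 stood at 569 and 179 CPM in the knockout total libraries and 9.46 and 14.2 in the control total libraries, lay at 3.915 without knockout total replicate 1 and 5.69 without replicate 2, and was called in 11 of 19 alternatives. The Ccnd1 interaction was no longer called with any one control or knockout granule library left out (edgeR adjusted p 0.158 to 0.317).

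The nonamer shown at the start was then used to sort all tested genes with an annotated 3′ UTR. In control cells 15.0% of the 1208 genes that carry it were called in the granule fraction, 140 higher and 41 lower, against 10.9% of 14055 genes without it. Their median ratio was 0.27 with the nonamer and -0.08 without. In knockout cells the shares were 18.7% and 18.0% (104 higher and 122 lower with the nonamer), with medians of -0.09 and 0.00, the first of which was 0.09 without knockout total replicate 1 and -0.29 without replicate 2. Knockout against control gave 0.248% and 0.512% in total RNA, 8.94% and 9.72% in the granule fraction, and the interaction 0.331% and 0.626%. The median interaction was -0.39 with the nonamer and 0.04 without, -0.25 and 0.03 without knockout total replicate 1, and -0.64 and 0.0021 without replicate 2. The classes also differed in GC content of the transcript, with medians of 47.1% and 50.29%. Longer 3′ UTRs carried the nonamer more often, 19.8% of those of 4218 to 5429 bases against 7.66% of those of 774 to 1835 bases. The part of GC content and of 3′ UTR length in these shares was not tested.

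The genes most like each member in pattern were named by the Pearson correlation of log2 CPM over the 8 libraries, among the 8916 genes that averaged 10 CPM or more. The libraries share fraction, stress and depth, and the values describe likeness alone. Zfp36 was nearest to Nr4a1 (0.997), an orphan nuclear receptor and immediate early gene, and to Ccn2 (0.996), a matricellular growth factor. Zfp36l2 was nearest to Akap8 (0.985), a nuclear kinase anchor, and Itga6 (0.983), an integrin, and Zfp36l1 to Msantd2 (0.996) and Nt5c2 (0.99). Elavl1 was nearest to Gata2 (0.991) and Cdr2 (0.989), Khsrp to Fam219a (0.993) and the actin crosslinker Flna (0.99), and Hnrnpd to Rnf217 (0.991) and Bnip3 (0.991). Among the members themselves the closest pair was Zfp36l1 and Hnrnpd (0.912), which share the high knockout total replicate 1, followed by Zfp36 and Elavl1 (0.839), and the most opposed pair was Zfp36l1 and Khsrp (-0.583).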

How the data were processed

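Poly(A) RNA of the 8 libraries was sequenced on an Illumina HiSeq, per the labels' protocols. The deposited values are raw counts per Ensembl gene, 1 column per library, not pooled. The submitters' processing notes name STAR and DESeq2 and the builds GRCm38 and mm10; versions, counting program and strand setting are not given in the sources used here. Of 39017 genes, 37693 matched GENCODE M21 (GRCm38), which gave names, exon lengths, GC content and 3′ UTRs; sequences were read from that genome. Every column was mapped to a sample by genotype, fraction and replicate number.

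Counts were analysed in R 4.3.3 with edgeR 4.0.16 (robust quasi-likelihood F-test, TMM scaling, filterByExpr), 1 mean per group and 4 residual degrees of freedom, over 18952 genes and 5 contrasts. P-values were adjusted by Benjamini-Hochberg over all genes, and called means an adjusted p under 0.05. Standard errors were derived from the F statistic. Log2 CPM used a prior count of 2. The steps were tested on simulated counts. Recovery of changes was simulated with the same spread in all groups, without the wider spread between the knockout total replicates. Depth was 67257220 to 123508539 counts per library.

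The members, lists and tests were chosen with earlier results of these data known. Named genes are every member, Mettl3, and from each list and contrast at most 3 called genes of lowest adjusted p with a mean of at least 5 CPM and groups that do not overlap. For some members, values with 1 library left out are also given. Alternatives were median-of-ratios, upper-quartile and library-size scaling, DESeq2 1.42.0, no filter, a mean of at least 5 CPM, a prior count of 0.5, a fit of the groups compared alone, a replicate block, removal of each library's GC trend (lowess, span 0.3), both together, each library left out and, added after seeing the data, voom with a quality weight per library (limma 3.58.1).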

Additional observations from a re-analysis of the deposited data

Results flagged for a closer look

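Among the members and listed genes, the granule to total ratio of 2 differed between the genotypes by a test of the difference itself. Over all 18952 genes tested, 98 were called, 76 with a higher and 22 with a lower ratio in knockout. For Zfp36l2 the knockout minus control difference was -2.65 on the log2 scale (edgeR adjusted p = 0.0405), with a ratio of 1.81 in control and -0.84 in knockout cells. For Ccnd1 it was -2.44 (edgeR adjusted p = 0.0437), with 1.62 in control and -0.82 in knockout cells. DESeq2 gave an adjusted p of 4.81e-08 for Zfp36l2 and called 2724 genes. With a replicate block, edgeR gave Zfp36l2 an adjusted p of 0.125 and called 0 genes. Mitochondrial transcripts took 6.156% to 8.808% of counts in the knockout granule libraries and knockout total replicate 1, and 0.59% to 0.8813% in the other 5, and the part of this in the 2 differences was not tested. The Zfp36l2 difference was -2.47 without knockout total replicate 1 and -2.98 without replicate 2. Both calls were lost with any one control or knockout granule library left out (edgeR adjusted p 0.158 to 0.317). Groups of 2 libraries are too small for the check on single outlying samples.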

How the results depend on the processing

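With 2 libraries a group the number of calls depended on how the spread was shared and on both knockout total libraries. The contrasts are lettered here as A (control granule to total), B (knockout granule to total), C (knockout to control, total RNA), D (the same in granule RNA) and E (difference of ratios). Members called in A to E were 2, 1, 0, 1 and 1. DESeq2 gave 2 in each of B, C and D. With no filter on low counts, B to E gave 3, 3, 2 and 3, and with the GC trend removed they gave 3, 1, 2 and 2. With voom weights A, B and D gave 5, 0 and 4, as did a fit of the groups compared alone (1 member at an unadjusted p under 0.05 in B under either). Leaving out 1 library gave 0 to 5 in A, 0 to 4 in B, C and D, and 0 to 3 in E.

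Over all genes the calls in A to E were 1906, 3343, 78, 1791 and 98. They were 4032, 5091, 2437, 3381 and 2724 with DESeq2, 4001, 5161, 3407, 3404 and 3476 with no filter, and 3765, 6020, 709, 4364 and 1690 with the GC trend removed. Voom weights gave 7448, 1079, 39, 10454 and 742. The groups compared alone gave 7354 in A, 0 in B, 0 in C and 10359 in D by edgeR, with 4363 and 1766 genes at an unadjusted p under 0.05 where 0 were called. The stricter filter of 5 CPM, which tests 10260 genes, gave 1224 in A, 1744 in B, 813 in D and 46 in E. Library size alone gave 37 in C, and upper-quartile factors gave 156 in E. Leaving out 1 library gave 0 to 8118, 243 to 9707, 0 to 9627, 0 to 7834 and 0 to 9349 calls of edgeR in A to E, with 1436 to 10923 genes at an unadjusted p under 0.05. Without knockout total replicate 1 or 2, edgeR called 6802 and 9707 in B, 1102 and 9627 in C, and 3712 and 9349 in E. The share of calls that were higher in E was 77.6%, and 37.0% with DESeq2, 33.2% with no filter, 36.6% with the GC trend removed and 33.7% with voom weights. In A it was 58.6%, and 37.7% with upper-quartile factors. In D it was 61.3%, and 73.1% with upper-quartile factors, 47.8% with the GC trend removed and 50.8% with the groups compared alone.

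Deviations of same-numbered libraries correlated at -0.2537 between total libraries and 0.0954 between granule libraries, across 18952 genes. Between the fractions they correlated at -0.0711 in control and -0.0743 in knockout. With 2 libraries a group and cultures that the labels do not describe, whether replicate numbers pair the samples cannot be told from these values. With the replicate block, edgeR called 581, 1898, 0, 670 and 0 genes in A to E (3474 in C and 3923 in E at an unadjusted p under 0.05) and 0 members in D and E, where Zfp36l2 had adjusted p of 0.0609 and 0.125 (2 members at an unadjusted p under 0.05 in each). The share of calls in A that were higher was then 48.4%, against 58.6%. With the replicate block and the GC trend removed, 3052, 5165, 312, 3573 and 609 genes were called in A to E, 42.7% of those in E higher, with 3 members in B and 2 in D.

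Changes of sign were met in values near 0 or resting on 1 library. Khsrp in A was at -0.181 with upper-quartile factors, -0.0701 with library size alone and -0.075 with the filter of 5 CPM, and between -0.0051 and 0.194 with 1 library left out. Hnrnpd ranged from -1.64 to 0.797 in B and from -0.031 to 2.39 in C, and Zfp36l1 from -1.85 to 0.0426 in B, each extreme with a knockout total library left out. Zfp36 in D ranged from -0.589 to 0.0034 with 1 library left out, and Zfp36l1 in D was at 0.0066 with upper-quartile factors and 0.0394 with the filter of 5 CPM. Elavl1 in E was at 0.0298 with the GC trend removed and 0.0369 with the replicate block added. Upper-quartile factors shifted the median of all genes by -0.232 in A, 0.148 in D and 0.243 in E, and library size alone by -0.126 in A and 0.19 in E. Of 96 level alternatives, 12 moved a member's log2 CPM by more than the replicate SD. The cause was not tested.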
